A study of Mus musculus with 52 samples.

Results

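The T cell genes examined here are 10 genes that T lymphocytes use to recognise antigen, to signal and to travel, matched by gene name among 38997 genes of the series. They are Cd3e, Cd3d, Cd4, Cd8a, Cd8b1, Lck, Cd5, Il7r, Ccr7 and Foxp3. Their levels were followed in spleen first and then in the other tissues, in wild-type mice and in mice that lack the Tug1 locus (Tug1-/-). All 10 had a row in the tables of spleen, heart, eyes, testes, prostate and liver, and 5 had one in mouse embryonic fibroblasts (MEFs, connective tissue cells cultured from embryos).

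RNA was sequenced from male mice in which lacZ replaced the body of the long noncoding RNA gene Tug1 in every cell, with its promoter and first exon retained, and from wild-type males. Spleen, heart, eye, liver and MEF groups held 3 samples per genotype, prostate held 3 wild-type and 2 Tug1-/- samples, and testes held 4 wild-type, 4 Tug1-/- and 3 rescue samples. All were on a mixed C57BL/6J and 129S6 background, and MEFs came from littermate embryos. The labels call the samples of spleen, heart, eye, liver, prostate and MEFs free of the neomycin cassette in both genotypes. In testes they list that cassette and lacZ for Tug1-/- and rescue mice and no neomycin cassette for wild type, while the study's methods describe a colony from which that cassette had been bred out. If the labels hold, the cassette and the deletion cannot be told apart in testes. Rescue mice were Tug1-/- and also carried the Tug1 transgene tg(Tug1) and CAGs-rtTA3, an activator driven by a ubiquitous promoter that switches the transgene on under doxycycline food. Ages of the mice were not given in the labels used here.

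T cells recognise peptide antigens through the T cell receptor, whose signal is passed inward by the CD3 chains. The coreceptors CD4 and CD8 bind the antigen-presenting molecule and bring the kinase LCK to the receptor. Resting T cells depend on the cytokine IL-7 and on the chemokine receptor CCR7, which guides them into the T cell zones of spleen and lymph nodes. Spleen is a lymphoid organ with large T and B cell areas, and in mice it also makes red blood cells and granulocytes.

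The deposited values are group means in TPM, a transcript unit that scales each gene by its length and by the total of its library. Neither values of single samples nor the authors' own fold changes and p-values were used here, so no spread between animals, test or p-value is given, and no difference below is shown to exceed the spread between animals. In place of a test, each Tug1-/- mean is given as a percent of the wild-type mean. The approximate 95% interval beside it covers counting error only, in all tissues but testes. It was built from the reads that the mean normalized count implies. Differences were counted as past 1.5-fold where wild type or Tug1-/- reached 1 TPM. The log2 ratio was taken on mean TPM with 0.1 added to each group, which understates the change of genes at low levels. In bulk tissue, fewer cells of a type and less RNA per cell cannot be told apart.

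Tug1 itself was at 53.8 TPM in wild-type against 0.0608 TPM in Tug1-/- spleen, and in each other tissue its Tug1-/- mean was at most 2.21% of the wild-type mean. In testes it was at 40.1 TPM in wild type, 0.885 TPM in Tug1-/- and 1.60 TPM in rescue mice. Markers of each labelled tissue were high in both genotypes, from 947 TPM for the B cell gene Cd79a in Tug1-/- spleen to 102474 TPM for albumin in Tug1-/- liver. The normalized counts of a library summed to between 38666994 in MEFs and 48341823 in eyes, and to 42241197 in spleen. The Tug1-/- spleen mean stood apart from the wild-type mean in 3 marker lists. All 10 genes of exocrine pancreas, an organ that touches the spleen, were higher, and their summed share of all TPM was 0.00757% in wild type and 1.01% in Tug1-/- spleen. The 8 erythroid genes summed to 0.957% in wild type and 1.80% in Tug1-/- spleen, and the 7 neutrophil genes to 0.156% and 0.334%. How these shares were spread over the 3 libraries of each genotype is not known from group means.

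The members lie on 7 chromosomes (GRCm38 coordinates as in the tables). Cd3d (chromosome 9, 44981786-44987339, plus strand) and Cd3e (chromosome 9, 44998740-45009627, minus strand) are 11.4 kb apart, and Cd8b1 (chromosome 6, 71322788-71337494, plus) and Cd8a (chromosome 6, 71373427-71379173, plus) are 35.9 kb apart. Cd4 is on the same chromosome at 124864692-124888221 (minus). Lck is at 129548344-129573641 of chromosome 4 (minus), Cd5 at 10718143-10738974 of chromosome 19 (minus), Il7r at 9505788-9530176 of chromosome 15 (minus) and Foxp3 at 7579676-7595243 of chromosome X (plus). Ccr7, at 99144196-99155077 of chromosome 11 (minus), shares its chromosome with Tug1. Each is a protein-coding gene, and each value counts reads over the whole gene. Cd3e overlaps an antisense RNA gene, AC122305.3, which was at 7.12 TPM in wild-type spleen. Foxp3 overlaps Gm36995 and Ccdc22 on the other strand and Flicr on its own, so low values of Foxp3 outside spleen are uncertain. The strand setting of the counting is not given in the sources used here.

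The 250 bases before the RefSeq start (GRCm38.p6) of the neighbours Cd3d and Cd3e are shown because their products join the same receptor, their levels kept nearly the same ratio in both spleens, and that ratio was far higher in testes. Of the 10 members, 7 had an entry in the promoter table. Capitals mark the letters of an E box (CAGNTG), a RUNX core (TGTGGT) or a TATA box (TATAAA) on either strand, and no marked letters overlap another motif.
Cd3d, chr9:44981536-44981785, plus strand: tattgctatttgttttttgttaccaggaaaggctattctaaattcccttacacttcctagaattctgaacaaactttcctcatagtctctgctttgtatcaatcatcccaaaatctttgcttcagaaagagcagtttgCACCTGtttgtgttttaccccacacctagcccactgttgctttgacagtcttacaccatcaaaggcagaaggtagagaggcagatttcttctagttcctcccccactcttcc
Cd3e, chr9:45009612-45009861, minus strand: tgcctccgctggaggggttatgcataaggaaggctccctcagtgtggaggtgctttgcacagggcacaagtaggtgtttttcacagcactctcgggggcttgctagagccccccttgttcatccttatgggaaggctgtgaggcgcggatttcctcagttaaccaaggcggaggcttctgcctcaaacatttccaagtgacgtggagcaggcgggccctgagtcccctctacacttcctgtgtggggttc
The Cd3d window held 1 E box and neither of the other motifs, and the Cd3e window held 0 matches to all of them. Of 32851 RefSeq windows of this length, 44.8% held an E box, 14% a RUNX core and 12.4% a TATA box. A match is only a run of letters, and its absence says nothing on the factor.

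In spleen, the T cell genes were close to their wild-type levels in Tug1-/- mice. The median log2 ratio of the 10 members was -0.11, and the median of the 17260 genes with at least 1 TPM was also -0.11. None of the members was past 1.5-fold, against 10.5% of all genes, so 0 of 10 is near that background. At a limit of 25% above or 20% below wild type, 2 of 10 members were past it, Il7r above and Ccr7 below, against 27.0% of all genes. Summed over the members, the level was 989 TPM in wild type against 914 TPM in Tug1-/- spleen, 92.5% of the wild-type sum.

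Cd3e and Cd3d had nearly equal means in both spleens. Cd3e, an invariant signalling chain of the receptor, was at 38.1 TPM in wild type against 38.2 TPM in Tug1-/- spleen, 100.3% of wild type (counting interval 97.0 to 103.7). Cd3d, its partner chain, was at 104 TPM and 102 TPM, 98.6% of wild type (95.6 to 101.6). Both intervals include equality. Cd3g, a CD3 chain that is not among the members, was at 73.0 and 63.9 TPM, 87.5% of wild type. The ratio of Cd3d to Cd3e in TPM was 2.72 in wild type and 2.68 in Tug1-/- spleen.

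The coreceptor genes had lower means in Tug1-/- spleen, by small amounts. Cd4, the coreceptor of helper and regulatory T cells, was at 98.5 TPM in wild type against 93.3 TPM in Tug1-/- mice, 94.7% of wild type (92.8 to 96.8). Cd8a, which encodes the chain found in every CD8 coreceptor, was at 88.3 and 76.6 TPM, 86.8% of wild type (84.7 to 88.9). Cd8b1, the chain that pairs with it on conventional cytotoxic T cells, was at 143 and 129 TPM, 90.8% of wild type (88.2 to 93.5). None of these intervals includes equality, but each is a limit on counting error and not on the spread between mice. The Cd4 to Cd8a ratio was 1.12 in wild type and 1.22 in Tug1-/- spleen.

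**Figure D1:**
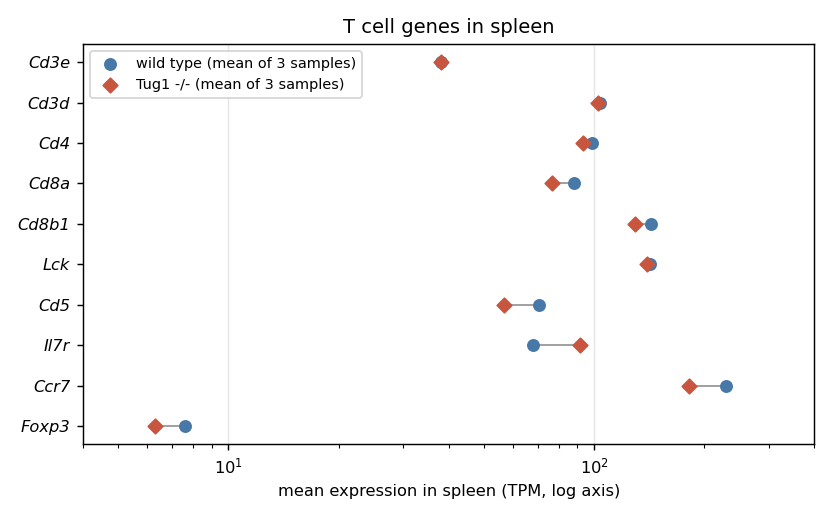
Mean TPM (log axis) of each T cell gene in wild-type spleen (circles, mean of 3 samples) and Tug1-/- spleen (diamonds, mean of 3 samples); group means have no error bars because the spread between samples is not known. Il7r lies to the right in Tug1-/- mice (91.4 against 67.8 TPM), Ccr7 and Cd5 lie to the left, and Cd3e and Cd3d nearly coincide.

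The kinase gene and its brake differed in how far they were from equality. Lck, the kinase that starts receptor signalling, was at 142 TPM in wild type against 139 TPM in Tug1-/- spleen, 97.9% of wild type (95.9 to 99.9). Cd5, a surface protein that dampens receptor signalling and is also carried by a subset of B cells, was at 70.5 and 56.5 TPM, 80.2% of wild type (77.3 to 83.2).

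The largest differences among the members, in opposite directions, were those of Il7r and Ccr7. Il7r, the receptor chain that binds IL-7, was at 67.8 TPM in wild type against 91.4 TPM in Tug1-/- spleen, 135% of wild type (132 to 138) and a log2 ratio of 0.43. Ccr7 had the highest level of the members, 229 TPM in wild type against 181 TPM in Tug1-/- spleen, 79.0% of wild type (77.4 to 80.7) and a log2 ratio of -0.34. Foxp3, the transcription factor that defines regulatory T cells, had the lowest, 7.61 and 6.29 TPM, 82.6% of wild type (76.1 to 89.4). The Foxp3 interval is wider because about 2462 reads lie behind it in all 6 libraries, against about 36022 for Ccr7. The 10 B cell genes of the marker lists were also lower, with a median log2 ratio of -0.41. Which cells the Ccr7 transcripts came from was not tested.

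The scale moved several directions. The median of all spleen genes lay at -0.11, so ratios were also read relative to it. On that centred scale Il7r was at 0.54, Ccr7 at -0.23, Cd5 at -0.21, Foxp3 at -0.16, Cd8a at -0.09 and Cd8b1 at -0.03, each on the same side as before. Cd4, Cd3d and Lck turned from just under 0 to 0.03, 0.09 and 0.08, and Cd3e stood at 0.11. Against Ptprc, the gene of the leukocyte surface protein CD45, which was at 267 TPM in wild type against 220 TPM in Tug1-/- spleen, the members' median was 0.17.

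**Figure D2:**
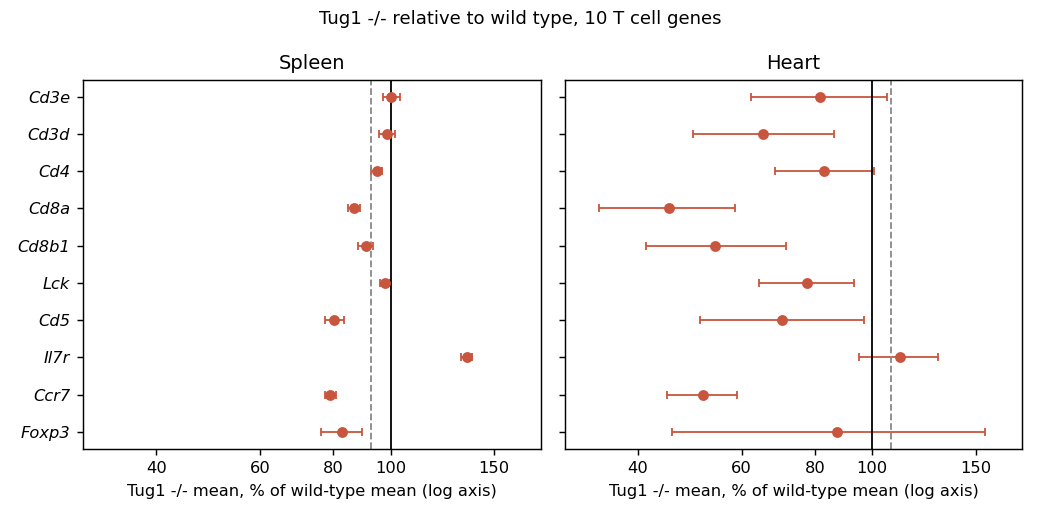
Tug1-/- mean as a percent of the wild-type mean (log axis) for each T cell gene in spleen and heart; bars are approximate 95% intervals for counting error only, the solid line is equality and the dashed line the median of all genes with at least 1 TPM. In spleen most points lie between 79.0% and 100.3% with Il7r at 135%, and in heart the points reach down to 45.1% (Cd8a).

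Other T cell genes mostly had somewhat lower means in Tug1-/- spleen. Of 30 such genes, 0 were past 1.5-fold, against 10.5% of all genes, and 27 had a log2 ratio below 0. Their summed level was 3024 TPM in wild type against 2545 TPM in Tug1-/- spleen, 84.2% of wild type. Their median log2 ratio was -0.18, against -0.11 for all genes. The range was -0.47 to 0.22, so each was below that of Il7r. Those with the highest wild-type levels included Ptprcap, a CD45-associated protein also made by B cells (637 TPM in wild type against 460 TPM in Tug1-/- mice), and Trbc2, a constant region of the receptor beta chain (369 and 320 TPM). Of the 8 genes of the IL-7 pathway beside Il7r, 0 were past 1.5-fold, against the same 10.5% of all genes. All 8 had a log2 ratio below 0, down to -0.45. The ligands of CCR7, Ccl21a and Ccl19, were at 86.1% and 75.7% of wild type.

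Beside the T cell genes, the other marker lists of the spleen lay on either side. The 10 B cell genes were all lower in the Tug1-/- mean, with a median log2 ratio of -0.41. Of these, 1 was past 1.5-fold, against 10.5% of all genes (Fcer2a, a low-affinity IgE receptor, 371 and 233 TPM). The medians of 6 NK cell, 10 macrophage and 6 dendritic cell genes were -0.15, -0.06 and -0.12. In these lists, 2 of 10 macrophage genes were past 1.5-fold, against that share of all genes. They lay in opposite directions (Cd163, 50.0 and 76.3 TPM, and Vsig4, 3.30 and 2.13 TPM).

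The lists that were higher were all past 1.5-fold in every gene, against 10.5% of all genes. The 7 neutrophil genes had a median log2 ratio of 1.501, led by Mpo (myeloperoxidase, 13.1 and 44.5 TPM). The 8 erythroid genes had a median of 1.05, with the erythroid factor Klf1 at 51.5 and 129 TPM. The 10 exocrine pancreas genes had a median of 9.22, and the chymotrypsinogen gene Ctrb1 was at 3.14 TPM in wild type against 2154 TPM in Tug1-/- spleen. With these 25 genes left out of the total, an alternative chosen after their levels were seen, every log2 ratio rose by 0.03 and the members' median was -0.08, with 0 of 10 past 1.5-fold. What else the cells behind these lists contributed to the T cell values was not tested.

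**Figure D3:**
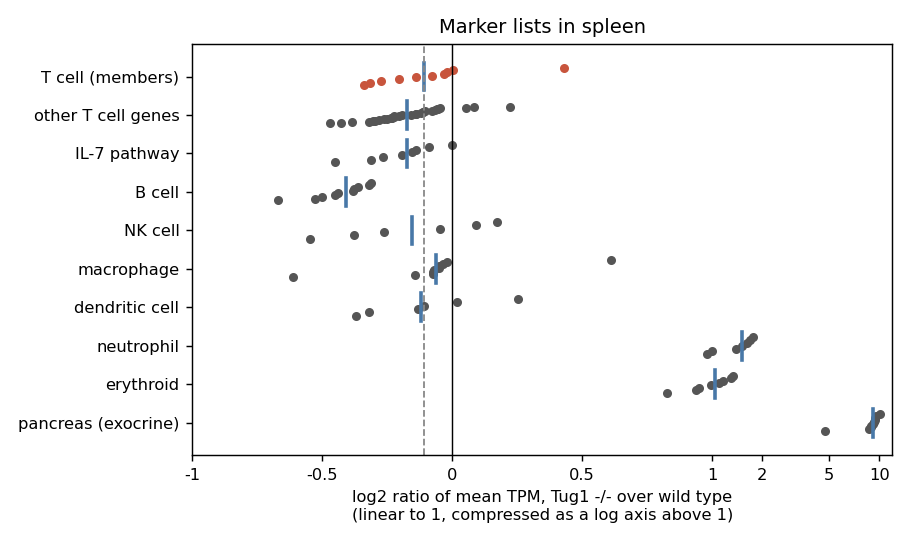
Log2 ratio of mean TPM, Tug1-/- over wild type, for each gene of 10 marker lists in spleen (points; the top row holds the T cell members) with the median of each list (vertical bars) and of all spleen genes (dashed line); the axis is linear up to 1 and logarithmic beyond. The T cell members centre on the dashed line at -0.11, the B cell genes on -0.41, and the neutrophil, erythroid and pancreas genes lie far to the right.

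Across tissues, the members marked the spleen. Their summed wild-type level was 989 TPM in spleen, 19.5 TPM in testes, 13.8 TPM in heart, 7.12 TPM in eyes, 5.09 TPM in prostate, 2.34 TPM in liver and 1.39 TPM in MEFs. The spleen sum was 50.8 times that of testes. The same order held for the Tug1-/- sums, from 914 TPM in spleen to 0.991 TPM in MEFs. Whether neighbours in this order below spleen differ beyond the spread between mice is not known. In wild-type testes most of the sum came from Cd3d (6.83 TPM), Cd8b1 (4.61 TPM) and Ccr7 (3.97 TPM). Cd3e was at 0.421 TPM and Ptprc at 0.418 TPM there, against 0.515 and 3.97 TPM in wild-type heart. The sums therefore do not rank these tissues by T cells. In MEFs the CD3 chains, both CD8 chains and Ccr7 had no row, which under the authors' filter means fewer than 3 reads in every sample, and the other members were below 1 TPM.

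**Figure D4:**
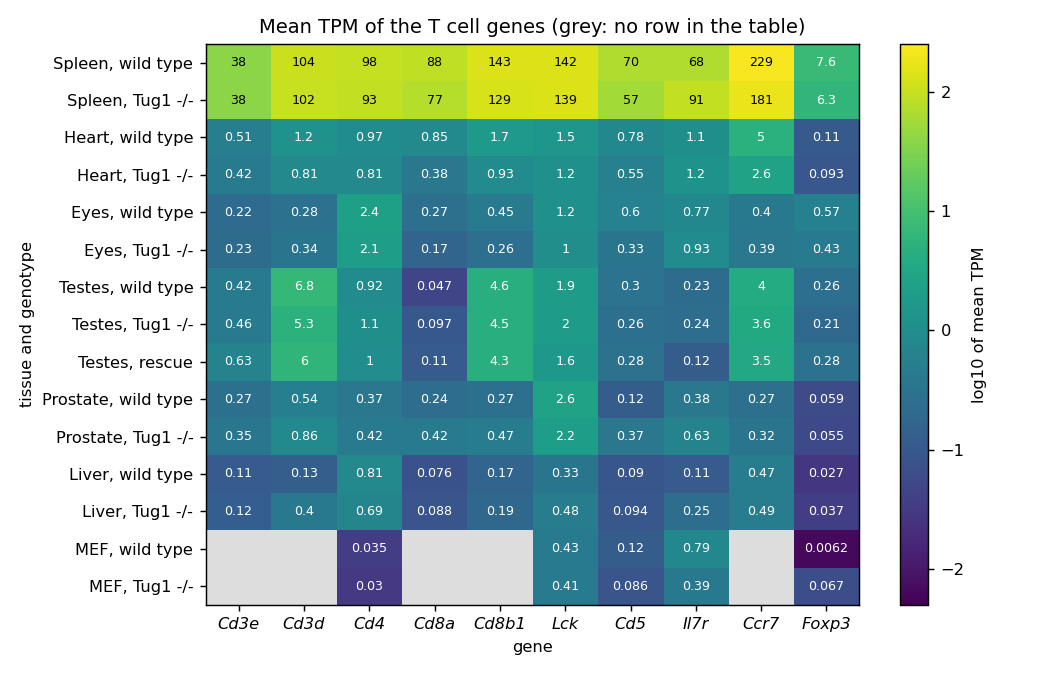
Mean TPM of each T cell gene (columns) in each tissue and genotype (rows), coloured by log10 of mean TPM, with the mean printed in each cell and grey where a gene has no row. The spleen rows stand out in every column, and within testes Cd3d, Cd8b1 and Ccr7 are brighter than Cd3e and Cd8a.

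In heart the T cell genes had lower means in Tug1-/- mice at low levels. The median log2 ratio of the members was -0.39, against 0.10 for the 14004 heart genes with at least 1 TPM, and 9 of 10 had a log2 ratio below 0. Of the 5 members with at least 1 TPM, 2 were past 1.5-fold, both lower, against 4.56% of all genes. Ccr7 was at 5.04 TPM in wild type against 2.59 TPM in Tug1-/- heart, 51.5% of wild type (44.7 to 59.0), from about 925 reads. Cd8b1 was at 1.72 and 0.927 TPM, 54.0% of wild type (41.3 to 71.4), and its partner Cd8a, under the 1 TPM minimum, was at 0.847 and 0.382 TPM, 45.1% of wild type (34.3 to 58.4). The Cd8b1 interval rests on about 241 reads and is wider than in spleen, where about 18014 reads lay behind it.

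The other heart members lay between 65.3% and 111% of wild type. Cd3d was at 1.24 and 0.807 TPM, 65.3% of wild type (49.5 to 86.1), which is past 1.5-fold as a plain ratio and on the centred scale but not with 0.1 TPM added. Lck was at 1.49 and 1.16 TPM, 77.5% of wild type (64.2 to 93.2). Intervals included equality for Cd3e, Cd4, Il7r and Foxp3, and for Cd5 the interval was 51.0 to 96.8. Il7r stood alone above equality, at 1.12 TPM in wild type against 1.24 TPM in Tug1-/- heart, 111% of wild type (95.1 to 129.5).

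Other lymphocyte lists of the heart differed among themselves. Of 14 other T cell genes with at least 1 TPM, 5 were past 1.5-fold, all lower, against the same 4.56% of all genes, while Cd28 and Ikzf2 were at 106% and 109% of wild type. Of 6 NK cell genes, 3 had a log2 ratio above 0 and 3 below, and the 1 with at least 1 TPM, Gzma, was at 102% of wild type. Of the B cell genes, 8 of the 9 with at least 1 TPM were past 1.5-fold, all lower, against that share of all genes, and the list's median log2 ratio was -1.03. The B cell list summed to 58.3 TPM in wild type against 29.1 TPM in Tug1-/- heart. Ptprc was at 3.97 and 3.09 TPM. The macrophage list had a median of 0.38 and the erythroid list one of -0.28, and the sum of the erythroid genes in Tug1-/- heart was 75.6% of wild type. The part of these lists in the T cell values was not tested.

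In eyes, prostate and liver most members were below 1 TPM. In eyes 2 members reached it, Cd4 (2.39 TPM in wild type against 2.08 TPM in Tug1-/- mice) and Lck (1.16 and 1.05 TPM), and neither was past 1.5-fold, against 7.87% of all genes. In eyes 7 of 10 members had a log2 ratio below 0, with a median of -0.17 against -0.11 for all eye genes with at least 1 TPM, from 55.3% of wild type for Cd5 (33.3 to 88.7) to 119% for Cd3d (64.0 to 224) and 121% for Il7r. The eye erythroid list summed to 295% and the neutrophil list to 223% of wild type, and their part in the T cell values was not tested. In prostate only Lck reached 1 TPM, at 2.59 TPM in wild type against 2.20 TPM in Tug1-/- mice, and it was not past 1.5-fold, against 7.99% of all genes. The other prostate members were higher in Tug1-/- mice except Foxp3, with a median log2 ratio over all members of 0.43, at levels of 0.0552 to 0.860 TPM in Tug1-/- mice and with 2 Tug1-/- samples. With 1 TPM added in place of 0.1 the median was 0.14. In prostate the 30 other T cell genes had a median of 0.12, with 25 above 0, and summed to 91.8% of wild type. Most of that sum was Gata3, at 257 of 342 TPM in wild type and 223 of 314 TPM in Tug1-/- mice. The macrophage list had a median of 0.62. The erythroid list summed to 152%, and the B cell list and Ptprc were each at 127% of wild type. The part of these lists in the T cell values was not tested. In liver no member reached 1 TPM, and Cd3d was at 0.134 TPM in wild type against 0.404 TPM in Tug1-/- mice, from about 52 reads in all.

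Il7r was above its wild-type mean in most tissues. Beside spleen and heart, its Tug1-/- mean was 121% of wild type in eyes (96.7 to 151), 167% in prostate (119 to 234), 227% in liver (142 to 365) and 107% in testes. In liver 9 of the 10 members had a log2 ratio above 0, Ptprc was at 155% of wild type and all 10 macrophage genes were higher, with a median log2 ratio of 0.49, and the part of these in the Il7r value was not tested. In rescue testes, which also lack the Tug1 locus, Il7r was at 0.123 TPM, against 0.229 TPM in wild-type testes. In MEFs it was lower, at 0.789 TPM in wild type against 0.393 TPM in Tug1-/- cells, 49.9% of wild type (35.4 to 68.7), from about 172 reads. No mean of Il7r outside spleen was above 1.24 TPM. Whether the effect of the genotype differs between tissues was not tested.

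Cd4 and Lck were present without matching levels of the CD3 chains in some tissues. In TPM, the ratio of Cd4 to Cd3e was 2.59 in wild-type spleen, 10.8 in eyes and 7.04 in liver. The ratio of Lck to Cd3e was 3.74 in wild-type spleen and 9.45 in prostate. In Tug1-/- mice these ratios were 2.44 in spleen, 9.02 in eyes and 5.51 in liver for Cd4, and 3.65 in spleen and 6.25 in prostate for Lck. CD4 is also made by some mouse macrophages and dendritic cells, and the source of the transcripts was not tested.

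In testes, partner genes did not keep the ratio that they had in spleen. Cd3d was at 6.83 TPM in wild type, 5.34 TPM in Tug1-/- and 6.03 TPM in rescue testes. Cd3e was at 0.421, 0.456 and 0.629 TPM, and Cd3g, the third CD3 chain of the same chromosome, at 0.109, 0.182 and 0.0768 TPM. The Cd3d to Cd3e ratio was 16.2 in wild type, 11.7 in Tug1-/- and 9.59 in rescue testes, against 2.72 in wild-type spleen. Over spleen, heart, eyes, prostate and liver the ratio lay between 1.16 and 3.24 in both genotypes.

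The CD8 pair was further apart. Cd8b1 was at 4.61 TPM in wild type, 4.52 TPM in Tug1-/- and 4.34 TPM in rescue testes, while Cd8a was at 0.0472, 0.0970 and 0.110 TPM. The ratio of Cd8b1 to Cd8a was 97.7 in wild type, 46.6 in Tug1-/- and 39.6 in rescue testes, against 1.13 to 2.43 in the other tissues that had rows for both. The testes ratios vary with Cd8a values near 0, whose depth is unknown, so no order among the 3 groups is read from them. Ptprc was at 0.418, 0.494 and 0.456 TPM in the same groups.

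**Figure D5:**
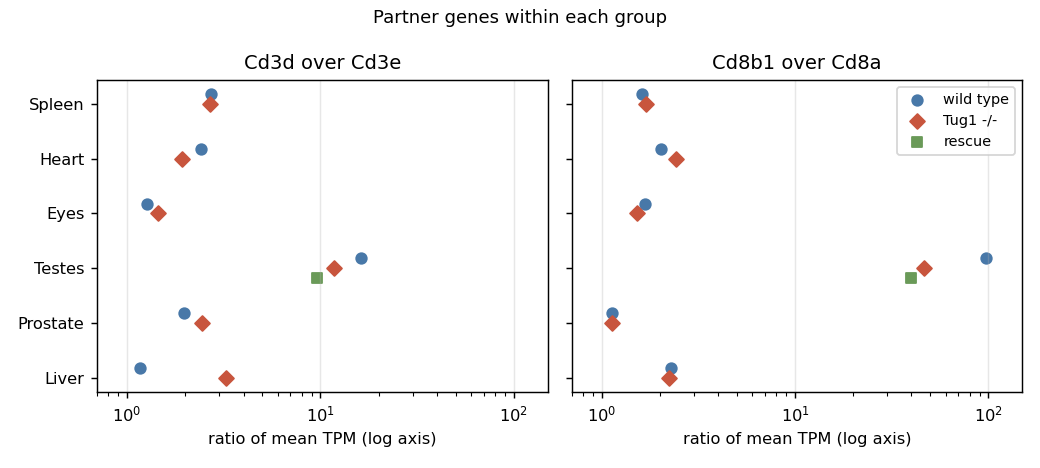
Ratio of mean TPM (log axis) of Cd3d to Cd3e and of Cd8b1 to Cd8a within each tissue for wild type (circles), Tug1-/- (diamonds) and rescue (squares, testes only). Testes lie apart, at 9.59 to 16.2 for the CD3 pair and 39.6 to 97.7 for the CD8 pair, and the other tissues lie between 1.13 and 3.24.

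Within testes the members differed little between genotypes. Of the 5 members with at least 1 TPM, 0 were past 1.5-fold in Tug1-/- over wild type, against 6.26% of all genes. The largest of these 5 differences was that of Cd3d, 78.2% of wild type. Ccr7 was at 3.97 TPM in wild type, 3.58 TPM in Tug1-/- and 3.48 TPM in rescue testes, and Lck at 1.87, 1.98 and 1.60 TPM. Rescue over Tug1-/- also gave 0 of 5 past 1.5-fold, against 4.65% of all genes, and rescue over wild type gave 0 of 5, against 7.93%. These comparisons share libraries, so they are not independent. Of the other T cell genes, the kinase gene Prkcq (82.6 TPM in wild type) and the receptor gene Cd96 (19.9 TPM) had the highest wild-type levels in testes. In Tug1-/- testes they were at 78.3 and 20.0 TPM. Of the 16 other T cell genes with at least 1 TPM, 5 were past 1.5-fold in Tug1-/- over wild type, against the same 6.26% of all genes. Trac and Ubash3a were higher, at 320.0% and 245% of wild type, and Tcf7, Cd2 and Zap70 were lower, at 59.8%, 62.4% and 64.1%.

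The pattern over tissues was alike among the members. Over 14 group means (7 tissues in wild-type and Tug1-/- mice, with absent rows set to 0), the Pearson correlation of log2(mean TPM + 0.1) of each member with the mean of the other members ranged from 0.909 for Il7r to 0.996 for Cd3e. Among 10758 protein-coding genes with at least 5 TPM in wild-type spleen, those most like the members' mean were Hsh2d, Clec2i, A430078G23Rik, Ms4a4b and Sirpb1a, with correlations of 0.987 to 0.996. Their spleen levels were 49.4, 81.6, 45.6, 97.5 and 22.4 TPM in wild type and 35.6, 73.8, 43.9, 80.7 and 19.4 TPM in Tug1-/- mice. These correlations describe mainly that the genes are high in spleen, and the points share tissues and libraries.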

How the data were processed

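Libraries were made from poly-A RNA with a TruSeq kit and sequenced in pools that held both genotypes. The authors aligned reads to GRCm38 with STAR under GENCODE gene models, took gene counts of unique alignments with featureCounts, dropped a gene when all replicates had under 3 reads and ran DESeq2. The deposited tables hold the authors' group mean TPM, and for the tissues other than testes the mean normalized count of a gene over both genotypes, a depth-scaled signal per gene. The other value columns are the authors' own comparisons (fold changes, statistics and p-values) and were not used. No column held values of a single sample. Brain rows and testes of F1 hybrid mice (6 of the 52 samples) were not analysed here.

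From the means, the log2 ratio with a pseudocount of 0.1 TPM, the percent of wild type and calls past 1.5-fold at 1 TPM or more were computed in Python 3.11.15 with pandas 2.3.3 and scipy 1.17.1. Reads were approximated as the mean normalized count times the number of libraries, split by mean TPM, and a Clopper-Pearson interval at 95% was taken. PCR reads without molecular identifiers are not independent molecules, so intervals cover counting error only. Testes carry no such count, and their depth is unknown. Members, lists and rules were chosen with earlier results of these data known. Named genes were the 10 members, list genes past 1.5-fold in spleen, the 3 highest other T cell genes there (1 is not reported here) and the 5 genes most alike over tissues; partner genes, pathway genes and the other genes of testes, eyes and heart named beside them were chosen after their values were seen. Alternatives were other pseudocounts, TPM minimums and fold limits, centring on the median of all genes, and levels relative to Ptprc.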

Additional observations from a re-analysis of the deposited data

How the results depend on the processing

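No paired analysis was possible because the tables hold group means and no values of single samples, and for the same reason leaving out replicates was not run. Of 115 alternative values, 96 stayed within the limits set for them: counting error for medians (0.1 log2 in testes) and 1.5 times for counts. In spleen, centring on the median of all genes moved the members' median log2 ratio from -0.11 to 0.0010, and taking it relative to Ptprc moved it to 0.17. At 25% above or 20% below, 2 of 10 members were past the limit in spleen (27.0% of all genes). In heart 4 of 5 were past it (12.6% of all genes) and in testes 1 of 5 (14.4% of all genes). Against the same 27.0% in spleen, 3 of 30 other T cell genes, 1 of 8 IL-7 pathway genes and 1 of 2 CCR7 ligands were past it. In the same tissue 8 of 10 B cell, 2 of 6 NK cell and 1 of 6 dendritic cell genes were past it. In heart, the 2 of 5 members past 1.5-fold became 1 of 5 with a pseudocount of 1 TPM (2.39% of all genes), 0 of 5 at 2-fold (1.67%), 3 of 5 with no pseudocount (4.85%), 3 of 5 centred on the median of all genes (4.62%) and 3 of 10 with no TPM minimum (8.75%). At a minimum of 5 TPM 1 member was left, Ccr7, and it was past the limit (2.08% of all genes). A pseudocount of 1 TPM also moved the members' median from -0.39 to -0.21 in heart and from 0.43 to 0.14 in prostate. With no TPM minimum, the members past 1.5-fold numbered 2 of 10 in eyes (12.7% of all genes), 5 of 10 in prostate (13.5%), 2 of 10 in liver (10.1%), 2 of 5 in MEFs (12.7%) and 1 of 10 for rescue over Tug1-/- testes (9.58%); these shares cover genes at all levels and were not matched to the low levels of the members. These changes follow from the construction of the limits. Depth limits values below 1 TPM most, and single values there rest on few reads.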

Other observations

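Cd163, a scavenger receptor gene of resident macrophages, was chosen after its values were seen. Its mean was higher in Tug1-/- than in wild-type mice in spleen (50.0 and 76.3 TPM), heart (11.3 and 20.4 TPM), eyes (5.09 and 11.2 TPM), liver (7.46 and 10.7 TPM), prostate (3.16 and 8.81 TPM) and testes (1.45 and 3.16 TPM), and it was lower in MEFs (0.145 and 0.0478 TPM). Rescue testes held 2.32 TPM. Of the 10 genes of the macrophage list, Cd163 included, a log2 ratio above 0 was held by 9 in heart, 10 in eyes, 10 in liver, 9 in prostate and 8 in testes, with list medians of 0.32 to 0.62. In spleen the other 9 had a log2 ratio below 0. In MEFs 7 of the 8 with a row, Cd163 among them, were below 0, and Adgre1, a macrophage surface gene, was at 150.4% of wild type.

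Of the other T cell genes in testes, Trac, the constant region of the receptor alpha chain, was at 0.980 TPM in wild type, 3.14 TPM in Tug1-/- and 3.08 TPM in rescue mice. Ubash3a, a regulator of receptor signalling, was at 0.778, 1.90 and 2.53 TPM, and Tcf7, a transcription factor of T cells, at 17.2, 10.3 and 11.8 TPM. Trbc2, which pairs with Trac in the receptor, was at 7.31, 6.95 and 5.25 TPM. These differences were not tested.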
